A study of Mus musculus with 2 samples.

Results

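The miR-29 family of the mouse consists of 4 hairpin genes, Mir29a, Mir29b-1, Mir29b-2 and Mir29c. All 4 were taken from the 2202 gene rows of each library by their GENCODE M21 symbols, matched through the Ensembl gene identifier. The rule takes the whole family and uses no measured value, although earlier results of these data were known. The libraries were microRNA-seq of total RNA below 30 bases prepared from the adrenal gland of male mice of the B6CASTF1/J strain at an age of 36 days, as a single group of 2 biological replicates with no treatment and no second genotype. B6CASTF1/J animals are first-generation crosses of C57BL/6J and CAST/EiJ, while the reads were quantified on mm10, the C57BL/6J assembly. An effect of CAST/EiJ alleles on mapping was not tested. The labels give both samples the same donor record but separate biosample records and animal numbers, and the replicates are treated here as 2 animals. Levels are CPM, the reads on the sense strand of a gene scaled so that all gene rows of that library sum to 1000000.

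MicroRNAs of the miR-29 family bind the 3′ untranslated regions of messenger RNAs through their seed, the bases at the 5′ end of the mature strand, and lower the amount of those messengers. Their best known targets encode extracellular matrix, among them fibrillar and basement membrane collagens, elastin and fibrillin, and TGF-β signalling is known to lower the family in fibroblasts during fibrosis. In the adrenal gland, collagen-rich matrix forms the capsule and the sheets around the cords of cortical cells.

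The mature 3p strands are shown first because they define the family. In the RefSeq annotation of GRCm38.p6 the Mir29b-1 and Mir29b-2 genes give the same 3p strand. Capitals mark the seed, bases 2 to 8 counted from the 5′ end.
miR-29a-3p: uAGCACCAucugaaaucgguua
miR-29b-3p: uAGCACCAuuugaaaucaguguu
miR-29c-3p: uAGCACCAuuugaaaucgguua
The seed was the same in all 4 genes. Among 1738 mature entries of the RefSeq table, from 1058 genes, it occurred in 4 entries, all of them miR-29. Positions below count from 1 at the 5′ end. From miR-29a-3p to miR-29c-3p the only substitution was C10U, which left 21 of 22 bases identical. From miR-29a-3p to miR-29b-3p the substitutions were C10U, G18A, U21G and A22U, and the first 9 bases were identical. From miR-29b-3p to miR-29c-3p they were A18G, G21U and U22A after 17 identical leading bases. The final bases of miR-29b-3p are known from human cells as an element that directs this microRNA into the nucleus.

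As annotated, the opposite 5p strands did not share a seed, and are shown because each of the 4 had a seed of its own. The seeds of miR-29b-1-5p and miR-29b-2-5p are offset by a single base within a stretch that is the same in both hairpins. Capitals again mark bases 2 to 8.
miR-29a-5p: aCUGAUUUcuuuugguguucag
miR-29b-1-5p: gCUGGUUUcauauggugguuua
miR-29b-2-5p: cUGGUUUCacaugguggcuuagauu
miR-29c-5p: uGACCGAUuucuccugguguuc
The deposited counts are per hairpin gene, so reads of the 5p and 3p strands were not told apart, and every level below is that of the whole hairpin.

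The genes lie in pairs on separate chromosomes. On the minus strand of chromosome 6 (mm10), Mir29b-1 spans chr6:31063023-31063093 and Mir29a spans chr6:31062660-31062747, with 275 bases between them. On the plus strand of chromosome 1, Mir29b-2 spans chr1:195037040-195037120 and Mir29c spans chr1:195037547-195037634, with 426 bases between them. In both pairs a miR-29b gene is the upstream hairpin. GENCODE M21 places the chromosome 1 pair in an exon of A330023F24Rik, a noncoding gene on the same strand, and also in an exon of Cd46 on the opposite strand; Cd46 encodes a complement regulator. Mir29b-1 overlapped an exon of the long noncoding RNA gene Gm27019 by 2 bases, and Mir29a overlapped no other annotated gene.

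Counted reads came mostly from Mir29a and Mir29c, whereas both miR-29b genes had few. The family had 26054 counts in replicate 1 and 20987 in replicate 2, which was 5796 CPM in replicate 1 and 10096 CPM in replicate 2, or 7946 ± 3040 CPM (SD, n = 2). As a share of all gene counts this was 0.580% in replicate 1, with an exact 95% interval (Clopper-Pearson) from 0.573% to 0.587%, and 1.01% in replicate 2, with an interval from 0.996% to 1.02%. With 2 libraries in a single group, an exact permutation test of levels between sets of samples cannot be made. Among 587 numbered microRNA families with a count, miR-29 stood at rank 17 by mean level, at rank 25 in replicate 1 and at rank 16 in replicate 2. Reads that map to several places are in no gene row, among them any read of exactly miR-29b-3p. The family sum, its share and these ranks leave them out.

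Mir29a (ENSMUSG00000065610.1), the downstream hairpin on chromosome 6, had 22855 counts in replicate 1 and 17980 in replicate 2. These were 5085 CPM in replicate 1 (exact Poisson 95% interval 5019 to 5151) and 8649 CPM in replicate 2 (8523 to 8776), with a mean of 6867 ± 2520 CPM (SD, n = 2). It was the 34th gene by level in replicate 1 and the 22nd in replicate 2. It made up 87.7% of the family's counts in replicate 1 and 85.7% in replicate 2.

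Mir29c (ENSMUSG00000065548.1), whose 3p strand differs from that of miR-29a by the single C10U substitution, had 3013 counts in replicate 1 and 2931 in replicate 2. These were 670.3 CPM in replicate 1 (647 to 695) and 1410 CPM in replicate 2 (1359 to 1462), or 1040 ± 523 CPM (SD, n = 2). It ranked 100th in replicate 1 and 72nd in replicate 2 and supplied 11.6% of family counts in replicate 1 and 13.97% in replicate 2. Mir29a was 7.59 times as high as Mir29c in replicate 1 (7.30 to 7.88) and 6.13 times as high in replicate 2 (5.90 to 6.38), so the order of the abundant genes was the same in both animals.

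Mir29b-1 (ENSMUSG00000065604.2) had 96 counts in replicate 1 and 40 in replicate 2, which gave 21.4 CPM in replicate 1 (17.3 to 26.1) and 19.2 CPM in replicate 2 (13.8 to 26.2), or 20.3 ± 1.496 CPM (SD, n = 2). Mir29b-2 (ENSMUSG00000065412.3) had 90 counts in replicate 1 and 36 in replicate 2, which gave 20.0 CPM in replicate 1 (16.1 to 24.6) and 17.3 CPM in replicate 2 (12.1 to 24.0), or 18.7 ± 1.91 CPM (SD, n = 2). These neighbours in the order of levels did not differ beyond their counting error: Mir29b-1 was 1.07 times Mir29b-2 in replicate 1 (0.792 to 1.44) and 1.11 times in replicate 2 (0.690 to 1.79). Together they held 186 counts in replicate 1 and 76 in replicate 2. The other neighbouring steps in the order, Mir29a over Mir29c and Mir29c over the miR-29b genes, were larger than the spread between the libraries. Levels of the miR-29b genes leave out any read of exactly miR-29b-3p.

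**Figure D1:**
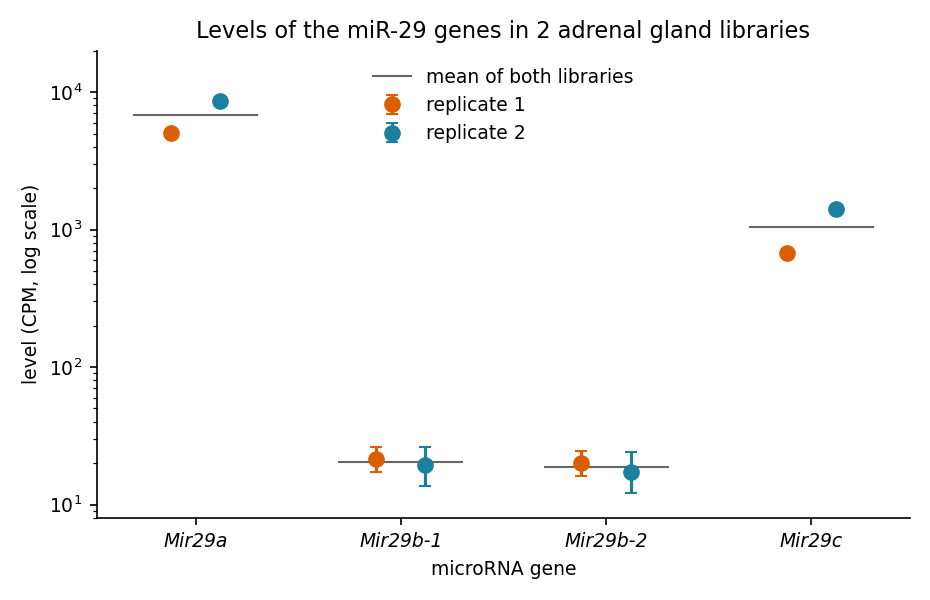
Level of the 4 miR-29 genes in CPM on a log axis, with a point per library for replicates 1 and 2, exact Poisson 95% intervals and the mean of both. Mir29a lies at 5085 and 8649 CPM and Mir29c at 670.3 and 1410 CPM, while both miR-29b genes lie near 20 CPM in each library. Reads of exactly miR-29b-3p are in no gene row.

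Within each pair the downstream hairpin carried most of the uniquely assigned counts. Mir29a was 238 times as high as Mir29b-1 in replicate 1 (exact binomial 95% interval 195 to 294) and 449.5 times as high in replicate 2 (330 to 629), a geometric mean of 327. Mir29c was 33.5 times as high as Mir29b-2 in replicate 1 (27.1 to 41.8) and 81.4 times as high in replicate 2 (58.7 to 116.5), a geometric mean of 52.2. The intervals of replicates 1 and 2 did not overlap for either pair, and both folds were the larger in replicate 2. With counting noise as the only error, 260 of 333 tested genes (78.1%) passed the test between these libraries. How often folds between other genes differ in this way was not tested, so the lack of overlap is not particular to these pairs as far as is known. The chromosome 6 pair had 5106 CPM in replicate 1 and 8668 CPM in replicate 2. The chromosome 1 pair had 690.3 CPM in replicate 1 and 1427 CPM in replicate 2. These are folds of hairpin counts, and were not divided by length since mature strands of the members are of similar length. Any read of exactly miR-29b-3p is in no gene row, so the folds do not measure the amount of miR-29b. The intervals cover counting error only. They take each read as an independent molecule, which was not tested.

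**Figure D2:**
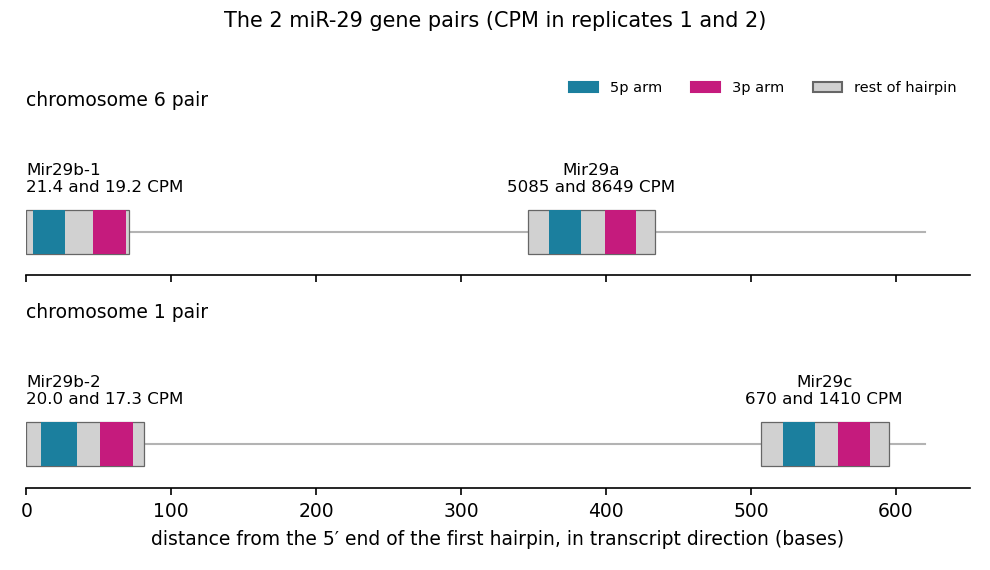
Map to scale of the miR-29 gene pairs in transcript direction, with distance in bases from the 5′ end of the upstream hairpin and the mature arms in colour. The labels give CPM in replicates 1 and 2, and the upstream miR-29b hairpin has the lower level of uniquely assigned reads in both pairs. Reads of exactly miR-29b-3p are in no gene row.

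The miR-29b hairpins also share sequence with each other. They are shown here with their longest common stretch, 25 bases, in capitals; it holds the whole miR-29b-3p strand.
Mir29b-1: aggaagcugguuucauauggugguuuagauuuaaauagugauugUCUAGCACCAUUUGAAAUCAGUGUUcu
Mir29b-2: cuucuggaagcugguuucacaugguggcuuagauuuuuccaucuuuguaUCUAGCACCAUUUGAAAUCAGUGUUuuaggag
A read of exactly this strand cannot be placed at a single locus. Of the 22-base windows in each hairpin, 5 of 50 in Mir29b-1, 4 of 60 in Mir29b-2, 1 of 67 in Mir29c and 0 of 67 in Mir29a also occurred in another RefSeq hairpin, and each such hairpin was a miR-29 gene. Reads listed as mapping to several places were 29.8% of all reads in replicate 1 and 21.5% in replicate 2, and they are in no gene row. How many of them came from miR-29b-3p was not tested, so the levels of Mir29b-1 and Mir29b-2 and the folds over them describe uniquely assigned reads and not the amount of miR-29b. The same limit holds for the family sum and for the share of each member in it. In the RefSeq table, 94 measured genes shared a whole mature strand with another gene. Of these, 54 had a count in these libraries, with a median mean level of 32.5 CPM. Of 924 genes that shared none, 591 were detected, with a median of 2.78 CPM. These medians cover different genes, and only detected ones, so they do not show how many reads a shared strand costs. Mir29b-1 was above 24 and Mir29b-2 above 21 of the 54, and they were above 373 and 370 of the 591. The genes with a shared strand together held 1.37% of gene counts in replicate 1 and 1.15% in replicate 2. Those that shared none held 85.8% in replicate 1 and 82.3% in replicate 2.

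The libraries differed in yield. Replicate 1 had 12289288 reads, of which 4494857 (36.6%) fell on the sense strand of genes. Replicate 2 had 10323816 reads, of which 2078824 (20.1%) did, and 51.9% of its reads were unmapped, compared with 26.4% in replicate 1. A count of 3, the limit that a count of 0 allows, is 0.667 CPM in replicate 1 and 1.44 CPM in replicate 2, so each miR-29 gene lay well above it. Every member passed the minimum of 10 counts in both libraries, as did 333 genes in all. No miR-29 gene had a count on the antisense strand in either library. That includes Mir29b-2 and Mir29c, which lie opposite a Cd46 exon.

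Between the libraries, the abundant members were lower in replicate 1 and the miR-29b genes did not pass the test. Ratios are replicate 1 over replicate 2 after edgeR's TMM scaling, tested with an exact two-sided binomial test that compares these libraries only and has counting noise as its only error, with Benjamini-Hochberg adjustment over 333 genes. Mir29a had a log2 ratio of -0.58 (95% counting interval -0.61 to -0.55), with an unadjusted exact p held at the smallest value kept, 1e-300. Mir29c had a log2 ratio of -0.89 (-0.96 to -0.81; exact binomial adjusted p = 2.45e-121). Mir29b-1 stood at 0.34 (-0.21 to 0.91; exact binomial adjusted p = 0.275), or at -0.17 after a correction for hairpin GC content, and Mir29b-2 at 0.39 (-0.18 to 0.99; exact binomial adjusted p = 0.220), or at 0.03 after that correction.

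Called in this way were 2 of the 4 members, both lower in replicate 1 than in replicate 2, against 260 of 333 genes tested (78.1%). Calls toward replicate 1 made up 38.7% of all tested genes and calls toward replicate 2 made up 39.3%. The median log2 ratio was -0.12 over the members and -0.01 over all tested genes, and scaling by library size alone shifted the median of all genes to -0.19. The absolute log2 ratio was smaller than that of Mir29a in 45.0% of tested genes and smaller than that of Mir29c in 65.5%, so both lay near the middle of the spread between these libraries. The same share was 22.5% for Mir29b-1 and 27.3% for Mir29b-2. With the variation between the libraries taken as the error (edgeR's exact test, biological coefficient of variation 52.2%), 6 of 333 genes (1.8%) were called and no member was. That variation was estimated from the same pair of libraries that the test compares, so its p-values support neither a difference nor the lack of one. The edgeR exact test gave an adjusted p of 0.987 for each member and unadjusted values of 0.599 for Mir29a, 0.775 for Mir29b-1, 0.756 for Mir29b-2 and 0.424 for Mir29c; 17 of the 333 genes were below 0.05 unadjusted.

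**Figure D3:**
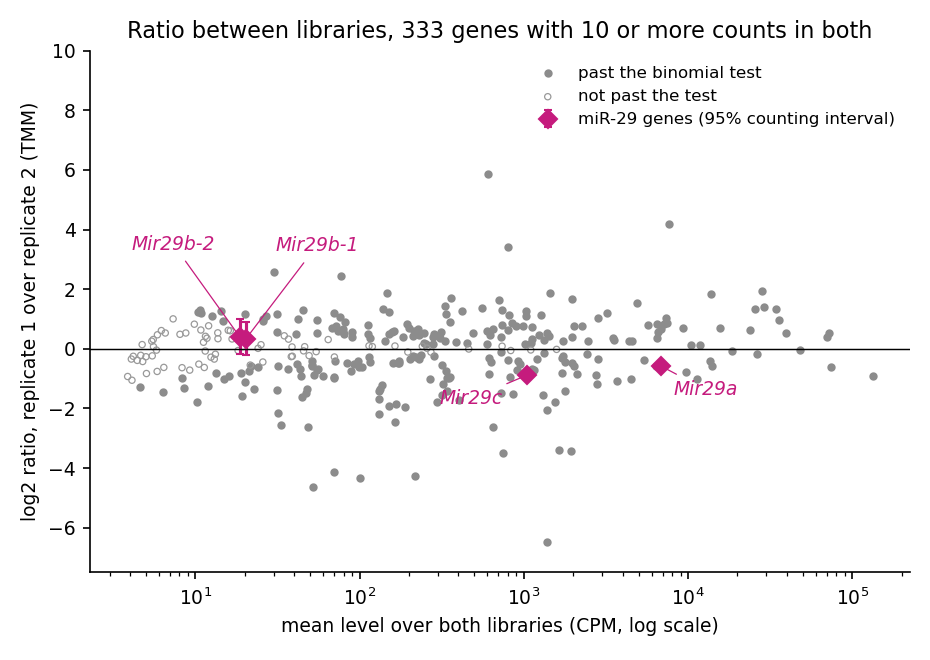
Log2 ratio of replicate 1 over replicate 2 after TMM scaling against the mean level in CPM (log axis) for the 333 tested genes, with filled points past the binomial test and the miR-29 genes as diamonds with 95% counting intervals. Mir29a (-0.58) and Mir29c (-0.89) lie below 0 and the miR-29b genes lie above it with intervals that include 0, all within the cloud of other genes.

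MicroRNAs known from other cell types, summed over each list, differed in level between the libraries as well. The fibroblast list (Mir199a-1, Mir199a-2, Mir199b and Mir214), of cells in which miR-29 is known to restrain matrix genes, had all 4 members detected in both libraries and had 1215 CPM in replicate 1 and 1525 CPM in replicate 2. Nearly all of that sum was Mir214, at 1178 CPM in replicate 1 and 1474 CPM in replicate 2, and Mir199a-1 and Mir199a-2 were higher in CPM in replicate 1. Reads that map to several places are in no gene row, and how many of them came from the Mir199 genes was not tested. The sum therefore describes uniquely assigned reads only. The erythroid list (3 of 3 detected in both libraries) had 15841 CPM in replicate 1 and 1091 CPM in replicate 2. Most of it was Mir451a, at 14361.7 CPM in replicate 1 and 902.9 CPM in replicate 2. Mir486 differed little, with 38.7 CPM in replicate 1 and 35.1 CPM in replicate 2. The epithelial miR-200 list (5 of 5 detected in both) had 64.7 CPM in replicate 1 and 3576 CPM in replicate 2. The pancreatic acinar list (Mir216a, Mir216b and Mir217) had 0 counts in replicate 1 for 3 of 3 genes and 677 counts, or 325.7 CPM, in replicate 2. The brown adipose list (4 of 4 detected in both) had 54203 CPM in replicate 1 and 97438 CPM in replicate 2. Nearly all of it was the single gene Mir378a, at 53936.5 CPM in replicate 1 and 94372.6 CPM in replicate 2. The part of these cell types in the lower Mir29a and Mir29c of replicate 1 was not tested, and in bulk tissue fewer cells of a type and less RNA per cell cannot be told apart.

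No list of microRNAs specific to the adrenal gland was used. The neuroendocrine list (Mir375, Mir7-1, Mir7-2 and Mir7b), which chromaffin cells share with other endocrine cells, had 48802 CPM in replicate 1 and 54157 CPM in replicate 2. Most of this was Mir375, at 44147 CPM in replicate 1 and 51780 CPM in replicate 2, while the other 3 genes were higher in CPM in replicate 1. The striated muscle list stood at 4.23 CPM in replicate 1 and 10.1 CPM in replicate 2, and both Mir133a genes and both Mir1a genes were at 0 in each library. The Mir1a genes are known to share a mature strand with each other, as are the Mir133a genes, and reads that map to several places are in no gene row, so these zeros do not show absence.

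The genes nearest to each member in level were found by distance on the log2(CPM + 1) scale over 2 libraries. For Mir29a they were Mir125a at 4733 CPM in replicate 1 and 8070 CPM in replicate 2 (distance 0.14), Mir27b at 4396 CPM in replicate 1 and 6407 CPM in replicate 2 (0.48), and Mir744 at 6852 CPM in replicate 1 and 6057 CPM in replicate 2 (0.67). For Mir29c they were Mir149 (0.25), Mir672 (0.27) and Mir15b (0.28). Each of these, like Mir29c, was lower in CPM in replicate 1, which the choice by distance over both libraries fixed in advance. For Mir29b-1 the nearest gene was Mir29b-2 (0.17), followed by Mir450-2 (0.20) and n-TSaga9 (0.34), and for Mir29b-2 it was Mir29b-1, followed by Mir5113 (0.21) and Mir450-2 (0.23). With 2 libraries these distances describe levels only.

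Other microRNAs with known roles in matrix production and fibrosis were set beside the family. Of 45 listed genes, 44 were matched in the files and 36 passed the minimum, while 4 were at 0 in both libraries. Past the exact binomial test were 34 of the 36 (94.4%, against 78.1% of all tested genes), 11 of them higher and 23 lower in replicate 1, with a median log2 ratio of -0.50. A call depends on the counts of a gene as well as on its ratio. With a minimum of 50 counts, 31 of 32 listed genes were called, against 236 of 259 tested genes. All genes of the epithelial miR-200 list were among those lower in replicate 1. The 4 highest by mean level all stood above Mir29a. Mirlet7i, of the let-7 family, had 44303 CPM in replicate 1 and 35156 CPM in replicate 2 (log2 ratio 0.52). Mir143, known from smooth muscle, had 45048 CPM in replicate 1 and 26224 CPM in replicate 2 (0.97). Mir26b had 43834 CPM in replicate 1 and 12870 CPM in replicate 2, and its log2 ratio of 1.95 was the largest of the list toward replicate 1. Mir30d, of a family known to restrain connective tissue growth factor, had 10791 CPM in replicate 1 and 16325 CPM in replicate 2 (-0.41). The largest ratio the other way was that of Mir200c, with 27.1 CPM in replicate 1 and 2734 CPM in replicate 2 (log2 ratio -6.47, 95% counting interval -6.74 to -6.21). Mir200c belongs to the epithelial list above, whose family is known to restrain the transition of epithelial to mesenchymal cells.

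The seed gives the letters by which the family's targets are recognised. Its complement in a messenger RNA is TGGTGCT, and this heptamer was searched on the transcript strand only, in the longest annotated 3′ untranslated region of each gene in GENCODE M21. No other motif was searched. No messenger RNA was measured in these libraries, so what follows describes sequence alone. Of 21024 genes 13.1% held at least 1 match, a density of 0.106 matches per kilobase, and 10.01% of windows of 1000 bases held one. Among 18 matrix genes, which were listed because many are known miR-29 targets and so are not independent of the seed, 16 held a match and 8 held 2 or more, at 1.11 matches per kilobase. Among 8 genes set beside them, common reference genes (Actb, Gapdh, Tubb5) and steroid or catecholamine genes of the adrenal (Star, Cyp11a1, Cyp11b1, Hsd3b1, Th), 0 held one in 7455 bases. Their regions were shorter, with a median of 520.5 bases against 1149 bases in the matrix genes. At the density of all genes so few bases would hold hardly any match, so this 0 cannot show a density below that of all genes.

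Col5a1, a chain of type V collagen, had 4 matches, and Col5a3, of the same collagen, Col4a5, a basement membrane collagen chain, Eln, which encodes elastin, and Lox, which encodes an enzyme that crosslinks collagen and elastin, had 3 each. Col1a1 and Col3a1, which encode chains of fibrillar collagens, had 1 each. Col1a2, which encodes the other chain of type I collagen, and Sparc had none in the regions searched. Sites are shown from Col1a1, Col3a1, Eln and Fbn1, which encodes fibrillin, with the heptamer in capitals. Sites of the other matrix genes, those of type V collagen among them, are not shown. Only sites followed by an A are shown, as were 18 of the 30 matches in the matrix genes; another Eln site, at base 298, and another Fbn1 site, at base 656, are followed by a T and are not shown.
Col1a1: gggtggggtgggaaggaatttcTGGTGCTa
Col3a1: ttccaacttcaaaatgtctcaaTGGTGCTa
Eln, first site: tgactcgcgacctcatcaacgtTGGTGCTa
Eln, second site: agtctccatctccaagggaaatTGGTGCTa
Fbn1, first site: cagtaggtttctgttgtctgttTGGTGCTa
The capitals pair with bases 2 to 8 of every 3p strand shown at the start, which is the same in Mir29a, Mir29c and both miR-29b genes. Counted from the first base after the stop codon, the heptamer began at base 919 of 1423 in Col1a1, at base 235 of 959 in Col3a1, at bases 38 and 285 of 1188 in Eln and, for the site shown, at base 406 of 992 in Fbn1.

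**Figure D4:**
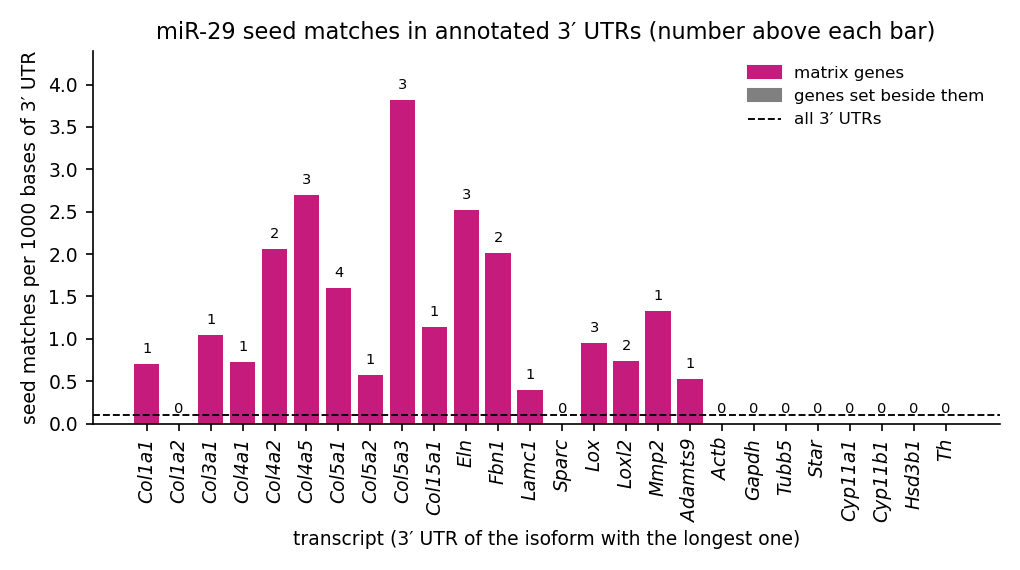
Matches to the miR-29 seed heptamer per kilobase of 3′ untranslated region for the 18 matrix genes and the 8 genes set beside them, with the density over all 21024 genes (0.106 per kilobase) as a dashed line. Of the matrix genes 16 lie above the line, Col1a2 and Sparc lie at 0, and so do all 8 genes beside them, whose regions are too short in sum to show a density below the line.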

How the data were processed

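Small RNA was sequenced of the adrenal gland of 2 male mice (B6CASTF1/J). The authors deposited a table of raw counts per gene for each library, on mm10 with GENCODE M21 per the deposited notes, with columns that ignore strand, count the sense strand and count the antisense strand; for the aligner and the counting tool, names were not given in the sources used here. Rows that name no gene (in replicate 1 and replicate 2, 26.4% and 51.9% unmapped, 29.8% and 21.5% mapping to several places, 7.16% and 6.46% outside genes) stayed out of library sizes. All 2202 identifiers matched the annotation. Sense counts were scaled to CPM over gene rows, with exact 95% intervals.

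Ratios between libraries used TMM scaling (edgeR 4.0.16 in R 4.3.3) and an exact binomial test with Benjamini-Hochberg adjustment at 0.05 over genes with 10 or more counts in both. A p below 1e-300 was held there. The test was checked on simulated data. Alternatives were edgeR's exact test, DESeq2 1.42.0 size factors, library size, the column that ignores strand, other count minimums, pseudocounts and a hairpin GC correction. Sequences came from RefSeq tables of GRCm38.p6 and GENCODE M21 transcripts, read with Python 3.11.15, pandas 2.3.3 and SciPy 1.17.1. The members and lists, among them the matrix and fibrosis list and the cell type markers, were chosen with earlier results of these data known. Every member is named, with the 3 genes nearest in level; of the matrix and fibrosis list the 4 highest and the largest ratio each way are named.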

Additional observations from a re-analysis of the deposited data

How the results depend on the processing

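With all reads of a library in the denominator the family averaged 2076 CPM, against 7946 CPM over gene rows. From a single library it was 5796 to 10096 CPM, Mir29a over Mir29b-1 was 238-fold to 449.5-fold and Mir29c over Mir29b-2 was 33.5-fold to 81.4-fold. The edgeR exact test, which takes its error from the same pair of libraries, called 6 genes against 260 with the binomial test, 4 against 34 of the matrix and fibrosis list, and no member. Mir29a and Mir29c kept their direction under every alternative run (log2 ratios -0.98 to -0.41 and -1.10 to -0.72). Mir29b-1 reversed to -0.17 under a linear hairpin GC correction and did not pass the test either way, and Mir29b-2 moved to 0.03; the cause was not tested. GC content was known for 86.5% of tested genes. A minimum of 50 counts left both miR-29b genes untested, with 40 and 36 counts in replicate 2. Leaving out a library leaves no comparison between libraries. No paired analysis was possible because there was a single group.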

Other observations

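Marker microRNAs of further cell types, were measured as well and are summed over each list. Some of their genes (Mir122, Mir143, Mir145a, Mir150, Mir155 and Mir192) are also in the matrix and fibrosis list. The endothelial list (Mir126a and Mir126b, known to keep vessels intact) had 74842 CPM in replicate 1 and 64797 CPM in replicate 2. The smooth muscle and pericyte list had 46612 CPM in replicate 1 and 30221 CPM in replicate 2, most of it Mir143. Mir145a, of the same cluster, went the other way, with 1564 CPM in replicate 1 and 3998 CPM in replicate 2. The kidney and gut list had 47317 CPM in replicate 1 and 21412 CPM in replicate 2, nearly all of it Mir10a, at 47186 CPM in replicate 1 and 21092 CPM in replicate 2. Mir192, Mir194-2 and Mir204 of that list were lower in CPM in replicate 1, while Mir194-1 had 6 counts in replicate 1 and 0 in replicate 2. Leukocyte microRNAs had 3219 CPM in replicate 1 and 3899 CPM in replicate 2; Mir146 and Mir150 were lower in CPM in replicate 1, and the other 3 (Mir142, Mir155 and Mir223) were higher. Mir122, the microRNA of hepatocytes, had 1383 CPM in replicate 1 and 2842 CPM in replicate 2. The neuronal list had 902.8 CPM in replicate 1 and 365.6 CPM in replicate 2, with Mir124a-1, Mir124a-2, Mir124a-3, Mir9-2 and Mir9-3 at 0 in both libraries. The Mir124a genes are known to share a mature strand with each other, as are the Mir9 genes, so reads of those strands map to several places and are in no gene row, and these zeros do not show absence.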
